A study of Mus musculus with 24 samples.

Results

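The comparison described here asks, gene by gene, whether the difference between the buccal and the lingual part of the cap-stage tooth germ changed when the parts were kept apart in culture. It was measured as an interaction, the buccal against lingual log2 fold change after culture minus the same fold change at the cap stage, over 12 of the 24 libraries of the series. All 22098 genes that passed a filter on low counts were tested, of 56748 in the table. A positive value means that a gene moved toward the buccal part in culture, and a negative value that it moved toward the lingual part, whatever its level was at the start. The rule uses no measured value, so the interaction itself could be tested.

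The 4 groups were Cap_L and Cap_B, the lingual and buccal parts of first mandibular molar tooth germs of ICR mouse embryos at E13, and Cap_L_2D and Cap_B_2D, the same parts after 2 days in culture, with 3 libraries each. The labels name no transgene and no drug in any group. The germs were cut with a fine needle, the parts to be cultured were then grown separately in vitro, and the mesenchymal cells were freed from the tissue with dispase II before RNA was extracted, so that the libraries were meant to hold dental mesenchyme without epithelium. Each cultured part therefore grew without the other part, and a culture of undivided germs was not analysed here. How the embryos were shared among the 3 libraries of a group is not given in the sources used here, and the study's methods are not of one voice on the number of biological replicates. The p-values below measure only the spread between these libraries, which may be technical.

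In the developing molar, the epithelium and the mesenchyme under it exchange Hedgehog, Wnt, BMP and FGF signals. Sonic hedgehog is made by the epithelium and is read in the mesenchyme through Ptch1, Smo and the Gli factors, and its target genes include Gli1, Ptch1 and Hhip. Wnt ligands, strengthened by R-spondins and held back by secreted inhibitors, act both in the epithelium and in the mesenchyme, and BMP signals are limited by antagonists such as noggin, follistatin and gremlin. The tissue around the germ also holds blood vessels, nerves, macrophages and, farther out, muscle and bone, whose cells can come along with a cut part.

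The libraries held 21663852 to 39266497 counts in genes, so that 3 counts corresponded to 0.0809 to 0.133 CPM (counts per 1000000 reads, scaled by TMM factors). The defining genes of dental mesenchyme were expressed in all 12 libraries, with Msx1 between 199 and 495 CPM. Libraries of a group were very alike, with a biological coefficient of variation of 0.0405, against 0.249 in the 6 libraries of undivided germs at the cap and bell stages (Cap_W and Bell_W), or 0.0997 in 4 of these without Cap_W replicate 1 and Bell_W replicate 3, which stood apart from the others of their groups. Libraries of a group differed by more than counting noise (chi-square per degree of freedom 1.31 to 9.85 over 12 pairs), as repeat libraries of 1 pool also can. Each was counted as 1 sample because the labels list it as one, and every p-value below rests on that. In what follows, values after ± are standard errors of the fit for log2 values and SDs over 3 libraries for CPM, and a gene is "called" where the adjusted p of edgeR's quasi-likelihood test fell under 0.05. CPM values are not divided by gene length and are compared only within a gene.

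The side difference changed in culture for a large part of the genes. The interaction was called for 7842 genes (35.5%), of which 3526 moved toward buccal (16.0%) and 4316 toward lingual (19.5%). Most of these changes were small, and 682 genes moved toward buccal (3.09%) and 1071 toward lingual (4.85%) by more than 2-fold. The median interaction over all genes was -0.0085 on the log2 scale. Leaving out each library in turn kept 5769 genes called every time (26.1%). With the wider spread of the undivided libraries in place of that of the parts, an alternative added after the data were seen, 547 genes were called (2.48%), 176 toward buccal (0.796%) and 371 toward lingual (1.68%). That spread rested largely on the 2 undivided libraries that stood apart. With the spread of the 4 others, also added after the data were seen, 3244 genes were called (14.7%), 1274 toward buccal (5.77%) and 1970 toward lingual (8.91%). Counts of called list members below are to be read beside the shares of all genes, 16.0% toward buccal and 19.5% toward lingual in the main fit.

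Among the 1071 genes that moved toward lingual by more than 2-fold, a side difference appeared in 338, widened in 183, turned to the other side in 207 and was no longer called in 194. Among the 682 genes that moved toward buccal, it appeared in 264, widened in 141, turned in 130 and was no longer called in 84. Read by their response to culture, 246 of the 1071 genes rose in the lingual and fell in the buccal part, 231 fell in the buccal part alone by the calls and 230 rose in the lingual part alone. Of the 682 genes, 207 rose in both parts, 192 were called as risen in the buccal part alone and 118 fell in the lingual and rose in the buccal part. The interaction therefore held changes in either part. Taken alone, culture raised 7435 genes (33.6%) and lowered 6985 (31.6%) in the lingual part, and raised 7156 (32.4%) and lowered 7005 (31.7%) in the buccal part. At the cap stage 4853 genes were higher in the buccal part (22.0%) and 4478 in the lingual part (20.3%), and after culture 5663 (25.6%) and 5817 (26.3%).

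**Figure D1:**
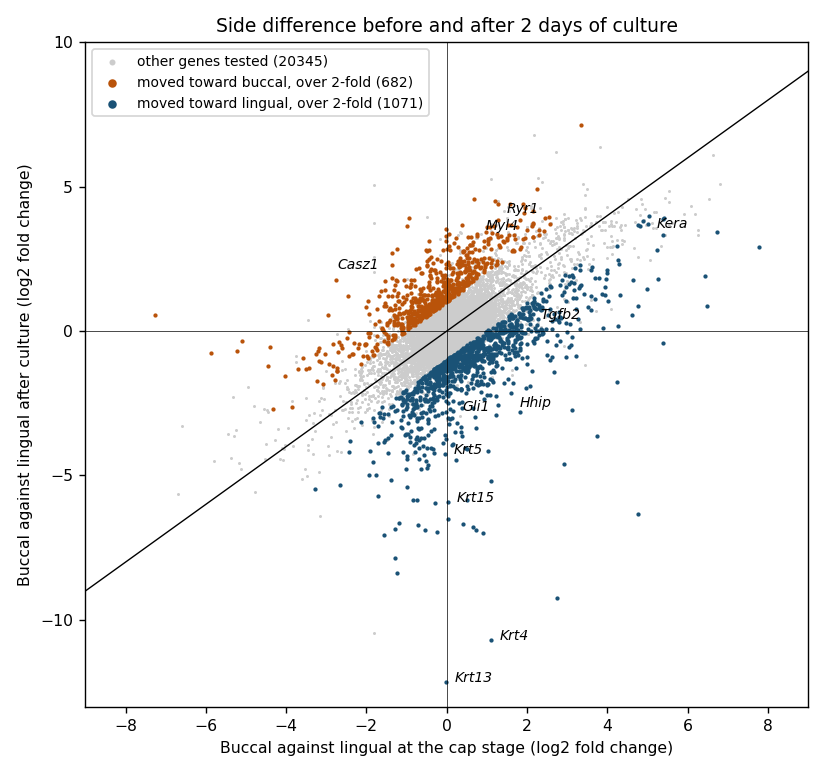
Each point is 1 of the 22098 genes tested, with its buccal against lingual log2 fold change at the cap stage on the x axis and after 2 days of culture on the y axis, positive values being higher in the buccal part. Genes on the diagonal kept their side difference, the 682 orange genes lie above it and the 1071 blue genes below it by more than 2-fold. Krt13 and Krt4 lie farthest below, and fitted values of genes with almost no reads in a group, such as these, depend on the fitting.

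Keratins and other epithelial genes made the widest changes. Most were present on both sides at the cap stage and in the cultured lingual part, and were low in the cultured buccal part, where 24 of the 25 tested fell. Of these 25, 20 moved toward lingual and 2 toward buccal, with a median interaction of -2.58, or -2.60 when groups at or under 3 reads are set to that floor. With the spread of the undivided libraries, 19 were called toward lingual and 1 toward buccal, or 20 and 1 with that of the 4. Krt5, a keratin of basal epithelial cells, was at 146, 163 and 154 CPM in Cap_L, 155, 146 and 149 in Cap_B, 153, 148 and 168 in Cap_L_2D and 7.63, 8.45 and 8.47 in Cap_B_2D. The first 3 groups overlapped, and the cultured buccal libraries lay far below them all. Its interaction was -4.22 ± 0.081 (adjusted p = 2.04e-26).

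Krt14, the partner of Krt5 in basal cells, was at 123, 147 and 130.0 CPM in Cap_L, 81.1, 77.6 and 77.8 in Cap_B, 97.1, 88.1 and 97.4 in Cap_L_2D and 6.26, 6.29 and 6.48 in Cap_B_2D, an interaction of -3.13 ± 0.091 (adjusted p = 7.71e-22). Dsp, which encodes the desmosome protein desmoplakin, had an interaction of -2.71 ± 0.079 (adjusted p = 7.71e-22) and stood at 7.28 ± 0.328 CPM in Cap_B_2D against 74.9 ± 2.69 in Cap_L_2D. For Dsp, as for most of the list, the lingual part led already at the cap stage (side difference -0.65 ± 0.047). Culture widened the lead of Dsp to -3.37 ± 0.062. Krt15, another keratin of basal cells, rose by 0.77 ± 0.048 in the lingual part in culture and fell by 5.19 ± 0.084 in the buccal part. Its levels were 53, 56.0 and 51.5 CPM in Cap_L, 55.7, 54.6 and 54.1 in Cap_B, 92.3, 89.5 and 92.3 in Cap_L_2D and 1.48, 1.16 and 1.81 in Cap_B_2D (interaction -5.96 ± 0.099, adjusted p = 7.26e-28).

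Keratins of stratified lining epithelium were high in the cultured lingual part and in no other group. Krt13, a keratin of the oral lining, had 9 to 26 reads in the cap libraries, 2735 to 4114 in Cap_L_2D and 0 to 2 in Cap_B_2D. Krt4, its partner, went from 7 to 17 reads at the cap stage to 1453 to 2179 in Cap_L_2D, with 1 read in each library of Cap_B_2D. With the cultured buccal libraries set to 3 reads each, the interactions of Krt13 and Krt4 were -10.22 and -10.36. Krt6a, a keratin of activated epithelium, rose from 3.21 ± 0.237 to 37.7 ± 2.94 CPM in the lingual part and fell from 3.28 ± 0.334 to 0.409 ± 0.0337 in the buccal part (interaction -6.56 ± 0.21, adjusted p = 6.82e-21), with 24.8% of its exons shared with other genes, where reads may be misplaced.

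The desmosomal cadherins Dsg3 and Dsg1a moved the same way. Dsg3 rose from 4.55 ± 0.672 to 13.1 ± 1.44 CPM in the lingual part. In the buccal part it fell from 3.84 ± 0.101 to 0.104 ± 0.0509 CPM, while Dsg1a had 192 to 285 reads in Cap_L_2D and 2 to 3 in Cap_B_2D. Krt19 (interaction -5.66 ± 0.29, adjusted p = 4.64e-16) and Cyp2w1, a cytochrome P450 (interaction -4.68 ± 0.30, adjusted p = 7.88e-14), were also nearly lost from the buccal part, and Cyp2w1 fell by 1.21 ± 0.12 in the lingual part too. Perp, a desmosome-linked p53 target, was at 4.13 ± 0.207 CPM in Cap_B_2D against 21.6 ± 0.505 in Cap_L_2D.

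The summed level of the epithelial list was 815 to 883 CPM in Cap_L, 560.5 to 586 CPM in Cap_B, 614 to 659.7 CPM in Cap_L_2D and 112 to 113 CPM in Cap_B_2D. It was thus lower in the cultured buccal libraries than in any other, and 2 of the members tested were there at or under 3 reads per library, 1 of them Shh, with 0 reads in all 3. In bulk RNA, fewer cells of a type and less RNA per cell cannot be told apart, so these values do not say whether epithelial cells were fewer or less active. As mesenchyme alone was to be taken from each part, these transcripts came with the mesenchymal preparations, and whether the separation left more epithelium in some groups than in others was not tested. The part that epithelial cells had in the other differences below was not tested.

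Sox2, a factor of dental epithelial progenitors that the study follows, was at 4.09, 4.25 and 4.57 CPM in Cap_L, 2.05, 2.32 and 2.04 in Cap_B, 2.92, 2.64 and 3.14 in Cap_L_2D and 0.324, 0.137 and 0.249 in Cap_B_2D. It was lower in the buccal part before culture and much lower after it (interaction -2.55 ± 0.29, adjusted p = 2.77e-08). Shh itself was near or under the limit of detection in all groups but Cap_L_2D. It had 5 to 9 reads in Cap_L, 1 to 4 in Cap_B, 31 to 50 in Cap_L_2D and 0 in each library of Cap_B_2D. After culture it was at least 15.1-fold higher in the lingual part, counting 3 reads per library as the floor. About 15.7% of its exons overlap other genes.

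Most Hedgehog genes also moved toward lingual, at levels that are easily measured. Gli1, Hhip and Ptch1 rose in the lingual part and fell in the buccal part, and all 3 ended higher in the lingual part. Of 13 Hedgehog pathway genes tested, 10 moved toward lingual and 1 toward buccal, with a median interaction of -0.53, and 6 were called toward lingual with the spread of the undivided libraries, or 9 with that of the 4. Gli1, the transcription factor that most directly reports Hedgehog signalling, was at 117, 122 and 119 CPM in Cap_L, 138, 127 and 137 in Cap_B, 226, 210.4 and 225 in Cap_L_2D and 29.7, 30.2 and 36.1 in Cap_B_2D. It rose by 0.88 ± 0.051 in the lingual part and fell by 2.07 ± 0.057 in the buccal part, an interaction of -2.95 ± 0.076 (adjusted p = 4.79e-23), with the 3 lingual and 3 buccal libraries not overlapping after culture.

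Hhip, a decoy that binds Hedgehog ligands, changed sides. It was at 5.34, 4.31 and 4.36 CPM in Cap_L and 13.9, 14.5 and 14.2 in Cap_B, then at 20.7, 21.7 and 21.2 in Cap_L_2D and 4.77, 4.55 and 4.92 in Cap_B_2D. The buccal lead of 1.61 ± 0.087 became a lingual lead (-2.16 ± 0.08), and the interaction of -3.77 ± 0.12 (adjusted p = 4.32e-21) came from a rise of 2.19 ± 0.081 on one side and a change of -1.58 ± 0.086 on the other. The receptor gene Ptch1 was higher in the lingual part from the start (side difference -0.92 ± 0.048). It went from 255 ± 21.3 to 356 ± 4.21 CPM in the lingual part and from 135 ± 3.56 to 95.4 ± 2.72 in the buccal part, widening the difference to -1.90 ± 0.048 (interaction -0.98 ± 0.067, adjusted p = 5.26e-13). Smo, the signalling coreceptor, and the ligand gene Ihh were not called, and Gli3 was the member that moved toward buccal, these 3 being named after their values were seen.

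**Figure D2:**
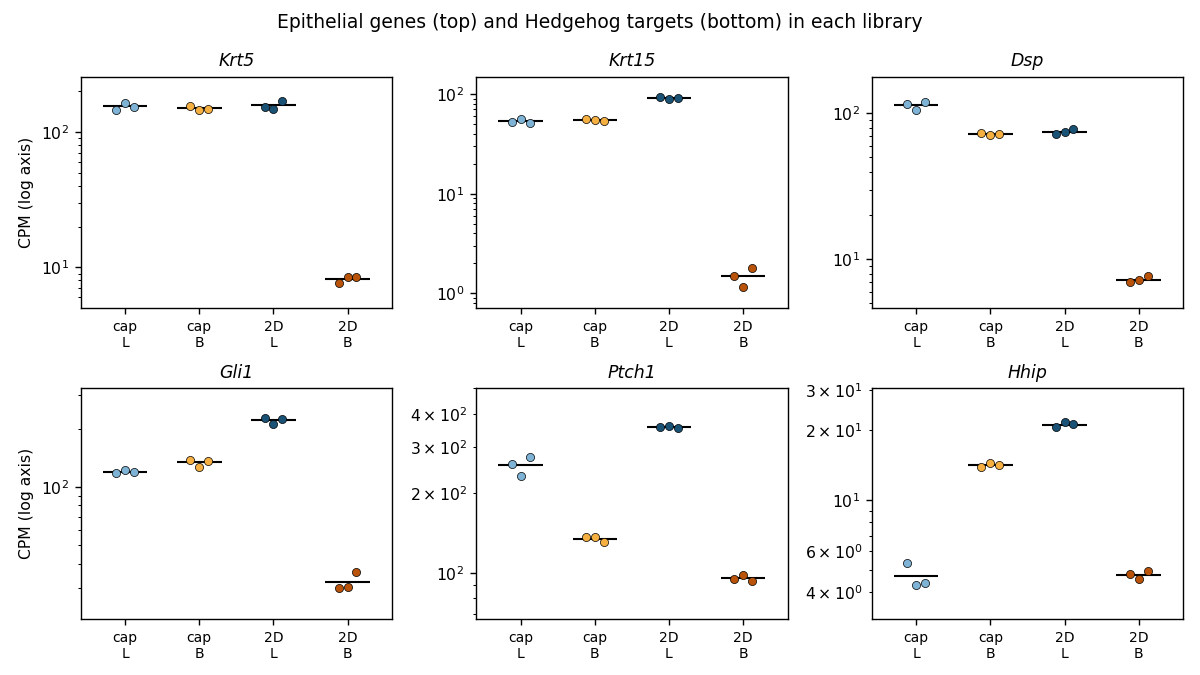
CPM on log axes in each of the 12 libraries (points, 3 per group, with the mean as a line) for 3 epithelial genes in the top row and 3 Hedgehog targets in the bottom row, in the order Cap_L, Cap_B, Cap_L_2D and Cap_B_2D. In all 3 epithelial panels and for Gli1 and Ptch1 the cultured buccal libraries are the lowest, while Hhip there returns to about the level of Cap_L.

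Wnt ligands and their secreted inhibitors both moved mostly toward lingual. Of 15 Wnt ligands tested, 10 moved toward lingual and 2 toward buccal (median interaction -1.14, or -1.09 with the floor), and of 11 inhibitors 10 moved toward lingual and 0 toward buccal (median -0.90). With the spread of the undivided libraries 4 ligands and 5 inhibitors were called toward lingual and 0 toward buccal, and with that of the 4 8 ligands and 8 inhibitors toward lingual and 1 ligand toward buccal. Wnt11, a ligand of mostly non-canonical signalling, was at 13.0, 16.8 and 14.4 CPM in Cap_L, 24.0, 23.1 and 22.3 in Cap_B, 44.2, 41.5 and 41.9 in Cap_L_2D and 14.1, 12.6 and 13.2 in Cap_B_2D. The cap-stage buccal lead was replaced by a lingual lead (interaction -2.31 ± 0.10, adjusted p = 9.92e-18).

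Wnt2 behaved otherwise, since it was higher in the lingual part before culture and fell only in the buccal part by the calls. It was at 16.0, 18.2 and 17.6 CPM in Cap_L, 8.41, 9.50 and 8.56 in Cap_B, 16.0, 17.3 and 17.4 in Cap_L_2D and 1.75, 1.74 and 2.03 in Cap_B_2D, an interaction of -2.23 ± 0.13 (adjusted p = 2.89e-14). Wnt9a rose by 1.59 ± 0.052 in the lingual part and fell by 0.28 ± 0.057 in the buccal part (interaction -1.87 ± 0.077, adjusted p = 2.71e-18). Wnt4 fell by 0.95 ± 0.084 in the buccal part, with an interaction of -1.14 ± 0.12 (adjusted p = 3.04e-09).

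Among the inhibitors, Sostdc1, which restrains both Wnt and BMP signals and limits tooth number, showed the widest shift. Its levels were 71.4, 74.9 and 65.6 CPM in Cap_L, 47.3, 47.2 and 52.2 in Cap_B, 181, 174 and 174 in Cap_L_2D and 34.9, 33.7 and 34.3 in Cap_B_2D (interaction -1.83 ± 0.071, adjusted p = 7.32e-19). Wif1, which binds Wnt ligands, rose in both parts, by 1.86 ± 0.042 in the lingual and 0.91 ± 0.044 in the buccal part. Frzb fell by 1.13 ± 0.04 in the buccal and fell by 0.23 ± 0.037 in the lingual part. Sfrp2 and Dkk2, which were higher in the buccal part at the cap stage (0.38 ± 0.044 and 0.45 ± 0.041), ended higher in the lingual part (-0.51 ± 0.044 and -0.37 ± 0.04), with interactions of -0.90 ± 0.062 (adjusted p = 5.43e-13) and -0.82 ± 0.057 (adjusted p = 7.12e-13). The study's in situ hybridization at the cap stage showed Dkk2 in the lingual mesenchyme and Sfrp2 more strongly there. The starting side of both genes in these libraries is the opposite one. Overlapping genes cover 17.6% of the Sfrp2 exons. Dkk3, a divergent member of the same family, rose in both parts, with an interaction of -0.11 ± 0.055 that was not called (adjusted p = 0.139).

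R-spondins, which strengthen Wnt signals by keeping receptors on the cell surface, did not move together. Rspo2 was at 11.8, 13.3 and 12.2 CPM in Cap_L, 29, 28 and 28.6 in Cap_B, 37.2, 38.5 and 35.2 in Cap_L_2D and 25.7, 23.6 and 23.7 in Cap_B_2D. It was higher in the buccal part before culture and higher in the lingual part after it, as it rose by 1.56 ± 0.062 in the lingual part and fell by 0.23 ± 0.059 in the buccal part (interaction -1.79 ± 0.086, adjusted p = 9.78e-17). Rspo4, at low levels, went from 1.57 ± 0.122 to 9.83 ± 0.477 CPM in the lingual part and from 1.12 ± 0.355 to 2.53 ± 0.341 in the buccal part (interaction -1.45 ± 0.25, adjusted p = 3.27e-05). Rspo3 was the one that moved toward buccal (interaction 0.62 ± 0.092, adjusted p = 2.52e-06), and it stayed higher in the lingual part (-0.81 ± 0.064).

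Rspo1 kept its modest lingual lead, with side differences of -0.38 ± 0.055 at the cap stage and -0.38 ± 0.052 after culture. Its levels were 41.7, 46.4 and 43.1 CPM in Cap_L, 35.5, 33.4 and 32.2 in Cap_B, 53.8, 52.4 and 52.7 in Cap_L_2D and 38.6, 40.4 and 43.0 in Cap_B_2D, and the interaction was -0.00028 ± 0.078 (adjusted p = 0.999). The receptors Lgr4 and Lgr5 moved toward lingual by -0.50 ± 0.059 (adjusted p = 4.08e-08) and -0.51 ± 0.06 (adjusted p = 4.78e-08). The genes that report canonical Wnt signalling changed less. Of 11 such targets, 6 moved toward lingual and 2 toward buccal, none by more than 2-fold and 0 with the spread of the undivided libraries, or 2 toward lingual and 1 toward buccal with that of the 4. Tcf7 had an interaction of -0.38 ± 0.071 (adjusted p = 6.78e-05), whereas Lef1 and Apcdd1, both higher in the buccal part throughout, had 0.40 ± 0.063 (adjusted p = 8.76e-06) and 0.29 ± 0.057 (adjusted p = 1.19e-04).

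**Figure D3:**
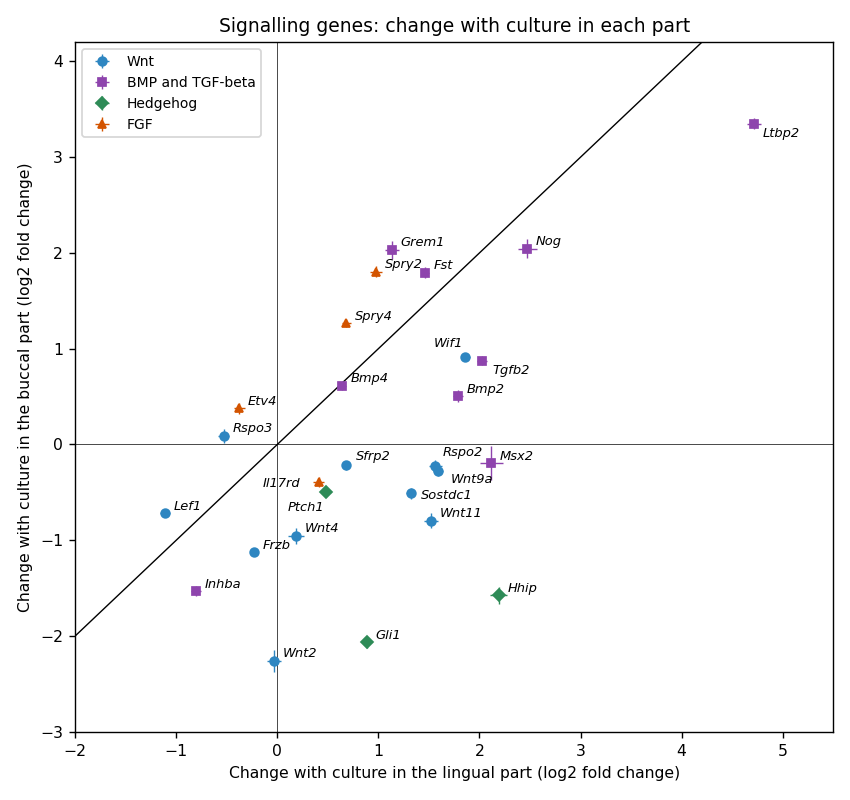
Change with culture in lingual (x axis) and buccal parts (y axis), as log2 fold changes with standard errors, for 27 signalling genes coloured by pathway. Genes under the diagonal moved toward lingual, and those in the lower right, among them Gli1, Hhip, Wnt11 and Sostdc1, went up in the lingual part and down in the buccal part, while Spry2, Spry4, Etv4, Grem1, Fst, Rspo3 and Lef1 lie above it.

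More BMP ligands and antagonists moved toward lingual than toward buccal. Of 16 ligands tested, 9 moved toward lingual and 1 toward buccal (median -0.28), the latter 0 without any 1 of Cap_L replicate 1, Cap_L replicate 3, Cap_B replicate 1, Cap_L_2D replicate 1 and Cap_B_2D replicate 3. Only 1 ligand was called toward lingual with the spread of the undivided libraries, and 6 with that of the 4. Bmp2, a ligand of the enamel knot and of bone, was at 31.0, 31.4 and 32.5 CPM in Cap_L, 16.0, 16.1 and 17.5 in Cap_B, 109, 111 and 108 in Cap_L_2D and 24.0, 24.4 and 22.1 in Cap_B_2D. It rose on both sides, by 1.79 ± 0.048 in the lingual and 0.50 ± 0.059 in the buccal part, and its lingual lead widened (interaction -1.28 ± 0.077, adjusted p = 2.12e-14). Bmp4, the ligand by which dental mesenchyme signals to the epithelium, rose about as much in both parts, by 0.64 ± 0.042 and 0.61 ± 0.041, and its interaction of -0.026 ± 0.059 was not called (adjusted p = 0.773). Inhba, the activin subunit of dental mesenchyme, fell in both parts and more in the buccal one (interaction -0.73 ± 0.071, adjusted p = 1.09e-09). Gdf6 and Bmp5 moved toward lingual by -2.22 ± 0.13 (adjusted p = 2.39e-14) and -1.58 ± 0.14 (adjusted p = 1.92e-10), although other genes overlap 46.7% of the Bmp5 exons. Bmp2, Inhba and Bmp5 were not called with the spread of the undivided libraries (adjusted p = 0.157, 0.171 and 0.157 by edgeR), and were with that of the 4.

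Of 15 BMP and activin antagonists, 9 moved toward lingual and 3 toward buccal (median -0.43, or -0.57 with the floor). These counts were 3 and 0 with the spread of the undivided libraries, and 6 and 2 with that of the 4. Those that moved toward buccal all had a lingual lead at the cap stage. Fst, or follistatin, was at 62.7 ± 0.729 CPM in Cap_L and 11.6 ± 0.145 in Cap_B, and at 172 ± 3.20 and 40.3 ± 1.00 after culture (interaction 0.34 ± 0.069, adjusted p = 2.60e-04). Grem1, or gremlin, rose from 4.51 ± 0.621 to 18.5 ± 1.45 CPM in the buccal part and from 14.6 ± 0.350 to 32.1 ± 1.39 in the lingual part, so that the lingual lead narrowed from -1.69 ± 0.094 to -0.80 ± 0.065 (interaction 0.90 ± 0.12, adjusted p = 3.18e-07). Chrdl2 lost its lingual lead of -1.11 ± 0.14 (interaction 0.97 ± 0.18, adjusted p = 5.68e-05). None of these 3 was called with the spread of the undivided libraries, and Fst was not with that of the 4 either.

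Noggin went the other way by a small amount (Nog, interaction -0.43 ± 0.15, adjusted p = 0.0215), and the call was lost without Cap_L replicate 2 (-0.39, adjusted p = 0.0559 by edgeR) or Cap_B replicate 2 (-0.39, adjusted p = 0.0687). Chrd, or chordin, rose in both parts, with an interaction of 0.11 ± 0.088 that was not called (adjusted p = 0.346). Bmper fell by 1.94 ± 0.068 in the buccal and fell by 0.47 ± 0.065 in the lingual part (interaction -1.47 ± 0.095, adjusted p = 1.28e-13). Fstl1, a secreted follistatin-like protein, moved by -0.62 ± 0.053 (adjusted p = 6.60e-11). Lefty1, a nodal inhibitor, had at most 40 reads in any library and was not called (adjusted p = 0.251).

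Of 12 genes that answer to BMP signals, 7 moved toward lingual and 2 toward buccal (median -0.29), the latter 1 without any 1 of Cap_L replicate 1, Cap_B replicate 3, Cap_L_2D replicate 2, Cap_L_2D replicate 3, Cap_B_2D replicate 1 and Cap_B_2D replicate 2. The count toward lingual was 1 with the spread of the undivided libraries and 4 with that of the 4. Msx2, a homeobox gene of the enamel knot and of mineralizing tissue, was at 2.71, 2.01 and 2.45 CPM in Cap_L, 1.74, 1.45 and 1.77 in Cap_B, 10.1, 10.4 and 10.3 in Cap_L_2D and 1.59, 1.2 and 1.5 in Cap_B_2D (interaction -2.31 ± 0.22, adjusted p = 5.76e-10). Its rise was in the lingual part, and the buccal level before and after culture overlapped. Msx1, by contrast, fell in both parts and more in the buccal one (interaction -0.47 ± 0.07, adjusted p = 3.21e-06). Bambi and Id2, both with a lingual lead before culture, moved further that way, by -0.76 ± 0.085 (adjusted p = 1.70e-08) and -0.39 ± 0.064 (adjusted p = 1.14e-05).

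Most TGF-beta genes rose with culture, more in the lingual part. Of 12 ligands, receptors and latency proteins, 12 rose on the lingual side and 11 on the buccal side, and 10 moved toward lingual with 0 toward buccal (median -0.68). The count toward lingual was 3 with the spread of the undivided libraries and 9 with that of the 4. Tgfb2 was at 27.6, 28.8 and 29.2 CPM in Cap_L, 124, 128 and 119 in Cap_B, 116, 119 and 114 in Cap_L_2D and 235, 229 and 216 in Cap_B_2D. The lingual level after culture was near that of the uncultured buccal part, and the buccal lead narrowed from 2.11 ± 0.048 to 0.96 ± 0.042 (interaction -1.15 ± 0.064, adjusted p = 3.38e-15). Tgfb3, which was lingual, became more so (interaction -0.35 ± 0.058, adjusted p = 1.51e-05). Ltbp1 and Ltbp2, which hold the latent ligand in the matrix, moved by -1.13 ± 0.057 (adjusted p = 2.95e-16) and -1.37 ± 0.099 (adjusted p = 1.78e-12).

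FGF genes were the signalling list with more members moving toward buccal than toward lingual, 8 against 4 of 25 (median 0.058). These are 32% and 16%, beside 16.0% and 19.5% of all genes. The lean was lost with the spread of the undivided libraries (0 toward buccal and 1 toward lingual) and past 2-fold (1 in each direction), and was 5 against 3 with that of the 4. Those toward buccal included genes that FGF signals switch on, such as the feedback inhibitors Spry2 and Spry4 and the factor Etv4. Spry2 was at 16.3, 16.2 and 15.3 CPM in Cap_L, 18.3, 16.5 and 16.4 in Cap_B, 30.8, 30.8 and 32.3 in Cap_L_2D and 58.6, 57.4 and 62.6 in Cap_B_2D, so that a side difference that was not called at the cap stage appeared in culture (interaction 0.83 ± 0.083, adjusted p = 2.05e-09). Spry4 and Etv4, lingual at the cap stage, moved toward buccal by 0.58 ± 0.063 (adjusted p = 9.07e-09) and 0.76 ± 0.08 (adjusted p = 5.44e-09). Il17rd, also a feedback inhibitor, went toward lingual (interaction -0.80 ± 0.075, adjusted p = 5.08e-10). None of these 3 genes that moved toward buccal was called with the spread of the undivided libraries.

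Among muscle genes, more of those for contraction moved toward buccal than toward lingual. All 24 contractile genes tested were higher in the buccal part both before and after culture, and all rose in both parts. Of these, 13 moved toward buccal and 2 toward lingual (median interaction 0.67), and 9 were not called. With the spread of the undivided libraries 2 were called toward buccal, or 6 with that of the 4. Their summed level was 54.7 to 55.1 CPM in Cap_L, 368 to 375 CPM in Cap_B, 548 to 587 CPM in Cap_L_2D and 6393 to 6793 CPM in Cap_B_2D. Ryr1, the calcium release channel of skeletal muscle, was at 10.9, 9.59 and 12.3 CPM in Cap_L, 24.8, 26.5 and 28 in Cap_B, 16.5, 14.7 and 16.0 in Cap_L_2D and 216, 222 and 235 in Cap_B_2D. The cultured buccal libraries were far above all others (interaction 2.55 ± 0.099, adjusted p = 6.20e-19).

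Myl4, a myosin light chain of embryonic muscle, was at 4.34, 5.28 and 3.68 CPM in Cap_L, 7.21, 8.58 and 6.99 in Cap_B, 28.9, 27.7 and 30.4 in Cap_L_2D and 277, 279.5 and 288 in Cap_B_2D (interaction 2.52 ± 0.12, adjusted p = 2.31e-16). Des, the muscle intermediate filament desmin, rose by 2.69 ± 0.067 in the lingual and rose by 3.77 ± 0.052 in the buccal part (interaction 1.09 ± 0.09, adjusted p = 3.84e-11). Tnnt3, a troponin of fast fibres, rose by 2.98 ± 0.11 in the lingual and rose by 4.96 ± 0.079 in the buccal part (interaction 1.98 ± 0.18, adjusted p = 2.08e-10). Neither Des nor Tnnt3 was called with the spread of the undivided libraries, and both were with that of the 4 undivided libraries. Genes outside the list that belong to striated muscle were also among those that moved most toward buccal. Styxl2, a sarcomere protein, went from 2.76 ± 0.207 to 17.2 ± 0.363 CPM in the buccal part and from 2.38 ± 0.407 to 2.12 ± 0.274 in the lingual part (interaction 2.85 ± 0.18, adjusted p = 1.41e-13), and Pdlim3, a Z-disc protein, from 2.47 ± 0.409 to 23.6 ± 0.823 and from 3.42 ± 0.325 to 4.92 ± 0.0746 (interaction 2.75 ± 0.16, adjusted p = 7.63e-15).

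The regulators did not follow one direction. Of 13 tested, 2 moved toward buccal and 4 toward lingual (median -0.40, but 0.11 with the floor), with 2 and 0 under the spread of the undivided libraries and also under that of the 4, while 13 rose in the buccal part and 9 in the lingual part. The interaction calls were 15.38% toward buccal and 30.77% toward lingual, beside 16.0% and 19.5% of all genes. The summed level of the list was 208 to 221 CPM in Cap_L and 182 to 190 CPM in Cap_B. After culture it was 224 to 226 CPM in Cap_L_2D and 889 to 904 CPM in Cap_B_2D. Myod1, which commits cells to the muscle lineage, was at 0.416, 0.461 and 0.511 CPM in Cap_L, 13.9, 12.6 and 12.7 in Cap_B, 8.23, 8.28 and 8.53 in Cap_L_2D and 104, 102 and 110.3 in Cap_B_2D. It rose in both parts, from near 0 in the lingual part, where the relative rise was greater (interaction -1.15 ± 0.19, adjusted p = 1.18e-05), although the absolute level stayed far below the buccal one. Pax3, of muscle progenitors and neural crest, moved toward lingual (interaction -0.69 ± 0.11, adjusted p = 5.34e-06).

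Mef2c, a partner of the myogenic factors that other cell types also use, rose by 1.27 ± 0.045 in the buccal part and fell by 0.099 ± 0.044 in the lingual part (interaction 1.37 ± 0.063, adjusted p = 3.72e-17). How far muscle cells taken along with a part contributed to these values was not tested.

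**Figure D4:**
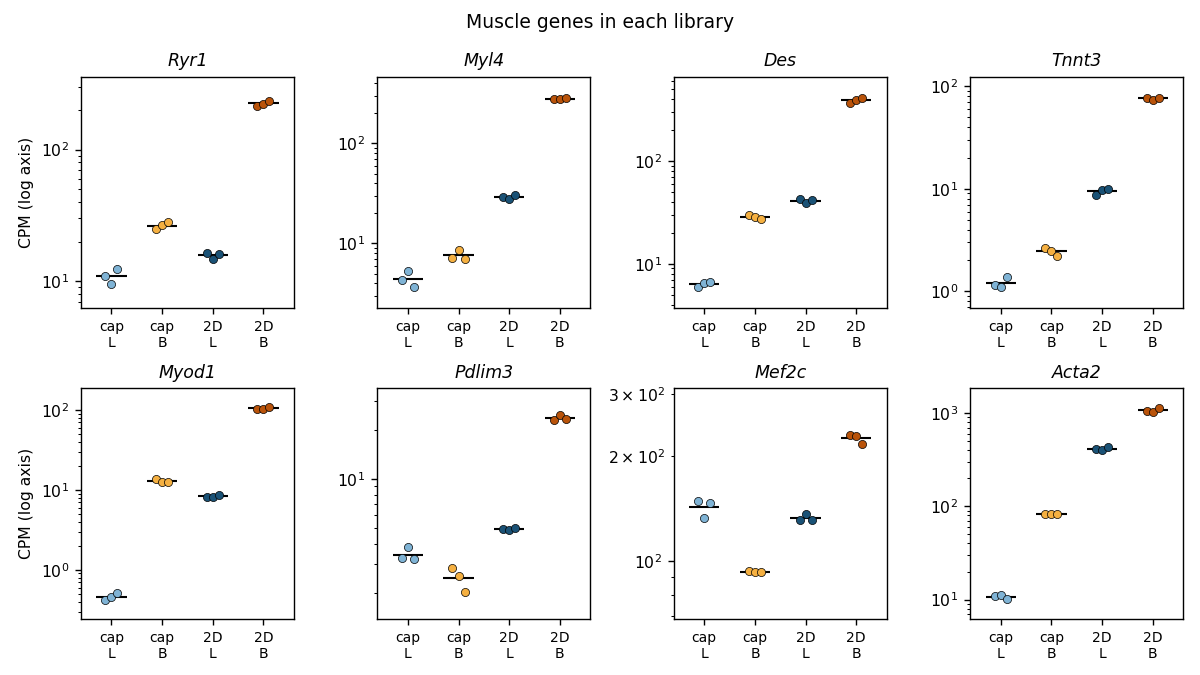
CPM on log axes in each of the 12 libraries (points, 3 per group, with the mean as a line) for 8 genes of muscle, in the order Cap_L, Cap_B, Cap_L_2D and Cap_B_2D. In all 8 panels the cultured buccal libraries are the highest, and all genes but Mef2c rise on both sides.

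Promoter sequences are shown for contractile genes that moved toward buccal, since the myogenic factors bind an E-box, of which CAGCTG is one form. The windows are the 150 bases before the transcription start in RefSeq (build GRCm38.p6), and the letters read the same on both strands. Of 13 contractile genes called toward buccal 9 had an entry, and 4 of these held the motif, against 5 of 20 among all contractile genes tested with an entry and 9.65% of the 27025 genes in the table. The match is a description of these windows and not evidence of binding. Besides Des, the genes shown were chosen after their values were seen, because they held the motif, and had interactions of 2.08 ± 0.40 (Cacna1s), 0.94 ± 0.15 (Mylpf) and 0.84 ± 0.21 (Tnni1), with adjusted p = 1.02e-04, 1.37e-05 and 0.00216. The 4 promoters follow, 5′ to 3′ on the gene's strand with the motif in capitals, for Cacna1s (chr1:136052661-136052810, plus strand), a calcium channel subunit, Des (chr1:75360142-75360291, plus strand), Mylpf (chr7:127211458-127211607, plus strand), a myosin light chain, and Tnni1 (chr1:135799271-135799420, plus strand), a troponin of slow fibres.
Cacna1s: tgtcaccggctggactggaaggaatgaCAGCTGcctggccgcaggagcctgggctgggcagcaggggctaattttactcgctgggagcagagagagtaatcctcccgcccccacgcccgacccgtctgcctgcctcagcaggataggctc
Des: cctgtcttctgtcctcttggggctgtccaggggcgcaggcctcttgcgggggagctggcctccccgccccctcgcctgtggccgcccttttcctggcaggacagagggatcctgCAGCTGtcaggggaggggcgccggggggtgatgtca
Mylpf: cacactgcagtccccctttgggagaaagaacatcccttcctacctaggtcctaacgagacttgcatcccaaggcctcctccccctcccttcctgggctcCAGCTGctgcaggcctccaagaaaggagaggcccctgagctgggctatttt
Tnni1: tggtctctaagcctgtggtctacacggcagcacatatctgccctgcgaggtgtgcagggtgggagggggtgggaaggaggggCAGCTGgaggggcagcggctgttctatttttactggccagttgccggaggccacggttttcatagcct
The motif began 123 bases before the start in Cacna1s, 36 in Des, 51 in Mylpf and 68 in Tnni1.

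Vessel and macrophage genes moved toward lingual in most of their members. Of 18 endothelial genes, 14 moved toward lingual and 0 toward buccal (median -0.97), and 7 were called with the spread of the undivided libraries, or 13 with that of the 4. Pecam1, an adhesion protein of endothelial cells, was at 71.0, 68.4 and 69.7 CPM in Cap_L, 68.9, 68.9 and 70.2 in Cap_B, 71.5, 73.2 and 70.7 in Cap_L_2D and 27.4, 27.9 and 28.1 in Cap_B_2D (interaction -1.36 ± 0.061, adjusted p = 2.46e-17). The sides overlapped at the cap stage, and the cultured buccal libraries lay below all others. The endothelial cadherin Cdh5 and the receptor Tie1 had interactions of -1.27 ± 0.061 (adjusted p = 9.78e-17) and -1.22 ± 0.072 (adjusted p = 1.82e-14), and Emcn, a surface protein of capillaries and veins, fell in both parts with -1.25 ± 0.088 (adjusted p = 9.22e-13). The summed level of the list was 788 to 803 CPM in Cap_L, 718 to 720.3 CPM in Cap_B, 646 to 656 CPM in Cap_L_2D and 318 to 337 CPM in Cap_B_2D.

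Most macrophage genes rose in culture on both sides, more in the lingual part. Of 18 members, 16 rose on the lingual side and 13 on the buccal side, and 16 moved toward lingual with 0 toward buccal (median -0.78, 1 called with the spread of the undivided libraries, or 11 with that of the 4). C1qb, a complement subunit made by macrophages, went from 6.81 ± 0.548 to 29.1 ± 2.43 CPM in the lingual and from 7.94 ± 0.546 to 15.6 ± 1.58 in the buccal part (interaction -1.13 ± 0.13, adjusted p = 2.17e-08). The scavenger receptor Mrc1 and the coreceptor Cd14 moved by -0.98 ± 0.086 (adjusted p = 1.44e-10) and -1.48 ± 0.12 (adjusted p = 3.47e-11). Ptprc, or CD45, of all white blood cells, was higher in the buccal part at the cap stage (3.95 ± 0.399 and 8.53 ± 0.152 CPM) and did not differ by the test after culture (9.06 ± 0.403 and 8.56 ± 0.497 CPM, interaction -1.21 ± 0.13, adjusted p = 7.57e-09). The summed level was 123 to 127 CPM in Cap_L, 136 to 142 CPM in Cap_B, 787 to 806 CPM in Cap_L_2D and 478 to 486 CPM in Cap_B_2D.

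More inflammatory and interferon genes went toward lingual than toward buccal. Of 29 chemokines and inflammatory signals, 21 moved toward lingual and 1 toward buccal (median -1.11, 2 called with the spread of the undivided libraries, or 16 with that of the 4), and of 23 interferon and MHC class I genes, 13 and 0 (median -0.46, 0 and 6 with those spreads). Ptgs2, the inducible cyclooxygenase, was at 3.37, 2.63 and 3.41 CPM in Cap_L, 5.70, 4.73 and 5.30 in Cap_B, 87.9, 97.9 and 91.3 in Cap_L_2D and 28.5, 28.6 and 26.9 in Cap_B_2D (interaction -2.48 ± 0.13, adjusted p = 1.16e-15). Cxcl12, a chemokine of stromal cells, was much higher in the buccal part at the cap stage (128 ± 0.839 and 422 ± 4.03 CPM) and less so after culture (149 ± 2.52 and 184 ± 4.16 CPM, interaction -1.42 ± 0.054, adjusted p = 5.02e-19). Cxcl14 and Cxcl2 moved by -0.60 ± 0.063 (adjusted p = 4.33e-09) and -1.56 ± 0.21 (adjusted p = 4.46e-07). H2-D1, H2-K1 and B2m, which build MHC class I, rose in both parts, with interactions of -0.71 ± 0.072, -0.53 ± 0.071 and -0.46 ± 0.065 (adjusted p = 2.64e-09, 5.36e-07 and 1.00e-06), and Irf1, an interferon-induced factor, had -0.52 ± 0.063 (adjusted p = 6.38e-08).

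Immediate early genes, which stress and handling induce within minutes, rose in culture in 26 of 26 members in the lingual and 25 in the buccal part. Of these, 18 moved toward lingual and 4 toward buccal (median -0.50, 6 and 2 with the spread of the undivided libraries, or 14 and 3 with that of the 4). Fosb, a subunit of AP-1, was at 300.4, 299.9 and 310.0 CPM in Cap_L, 377, 371 and 379 in Cap_B, 2271, 2258 and 2255 in Cap_L_2D and 962, 959 and 1004 in Cap_B_2D (interaction -1.52 ± 0.054, adjusted p = 1.02e-19). The orphan receptors Nr4a3 and Nr4a2 moved by -2.18 ± 0.071 (adjusted p = 9.44e-21) and -1.46 ± 0.068 (adjusted p = 5.83e-17), and the phosphatase gene Dusp1 by -1.14 ± 0.065 (adjusted p = 9.15e-15).

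Genes of nerve and glia were split between the sides. Of 13 Schwann and glial genes, 8 moved toward lingual (61.54%) and 2 toward buccal (15.38%, median -1.18), and of 13 neuronal genes 2 (15.38%) and 6 (46.15%, median 0.64). With the spread of the undivided libraries these were 3 and 2 for glia and 0 and 4 for neurons, and with that of the 4 they were 6 and 2 for glia and 2 and 5 for neurons. With all 24 libraries in 1 fit 5 glial genes were called toward lingual and 1 neuronal gene toward buccal, and Fabp7, Tubb3, Stmn2 and Dcx were then not called. Gfra3, the receptor for artemin, was at 15.9 ± 0.809 CPM in Cap_L and 7.48 ± 0.805 in Cap_B, and at 20.6 ± 1.02 and 1.14 ± 0.378 after culture (interaction -3.10 ± 0.17, adjusted p = 2.32e-15), and Fabp7, a fatty acid binding protein of glia, moved by -2.59 ± 0.30 (adjusted p = 2.58e-08). Erbb3, the neuregulin receptor of Schwann cells, which muscle also expresses, rose from 28.4 ± 1.66 to 90.1 ± 1.99 CPM in the buccal part with a lingual change of 11.4 ± 0.452 to 11.8 ± 0.242 (interaction 1.61 ± 0.084, adjusted p = 9.77e-16). Ngfr, the low-affinity neurotrophin receptor, moved toward buccal by 1.05 ± 0.072 (adjusted p = 5.73e-13) and stayed higher in the lingual part (-0.92 ± 0.048).

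Insrr, an insulin receptor relative, was among the genes that moved most toward buccal. It was at 5.79, 5.37 and 5.56 CPM in Cap_L, 1.78, 1.87 and 2.07 in Cap_B, 1.90, 2.16 and 2.62 in Cap_L_2D and 6.12, 5.47 and 6.45 in Cap_B_2D (interaction 2.95 ± 0.18, adjusted p = 4.54e-14). The tubulin Tubb3, the growth cone proteins Stmn2 and Dpysl5 and the microtubule protein Dcx moved toward buccal by 1.40 ± 0.11, 1.43 ± 0.15, 2.65 ± 0.12 and 1.60 ± 0.16 (adjusted p = 2.28e-11, 7.88e-09, 5.83e-17 and 2.51e-09), whereas the neurofilament gene Nefl went toward lingual (-0.91 ± 0.089, adjusted p = 1.11e-09), as did the neuropeptide precursor Scg2 (-3.97 ± 0.16, adjusted p = 1.00e-18) and Cntnap4, a synaptic adhesion protein (-4.0 ± 0.19, adjusted p = 6.78e-17). Other genes cover 32.8% of the Nefl exons.

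The other genes that moved most toward buccal had varied roles. Kremen2, a receptor for the Wnt inhibitor Dkk1, was at 16.6, 17.6 and 14.7 CPM in Cap_L, 12.9, 12.6 and 11.9 in Cap_B, 4.17, 2.89 and 3.69 in Cap_L_2D and 19.5, 21.1 and 23.7 in Cap_B_2D. It fell by 2.20 ± 0.11 in the lingual part and rose by 0.78 ± 0.085 in the buccal part (interaction 2.97 ± 0.14, adjusted p = 3.86e-17). Shisa2, which holds back Wnt and FGF receptors, turned from a lingual (-1.47 ± 0.06) to a buccal lead (1.21 ± 0.056), at 43.6 ± 1.76 and 15.8 ± 0.241 CPM before and 20.7 ± 1.65 and 47.9 ± 0.909 CPM after culture (interaction 2.68 ± 0.082, adjusted p = 2.41e-21). Casz1, a zinc finger factor of heart and nervous system, turned likewise (interaction 3.05 ± 0.15, adjusted p = 9.77e-17), as did the receptor gene Gpr37 (2.83 ± 0.19, adjusted p = 2.11e-13). Frmpd1 rose from 3.31 ± 0.640 to 36.4 ± 2.30 CPM in the buccal and from 2.30 ± 0.321 to 3.78 ± 0.364 in the lingual part (2.73 ± 0.18, adjusted p = 3.45e-13). Stum went from 0.338 ± 0.140 to 13.4 ± 0.311 CPM in the buccal and from 0.362 ± 0.206 to 1.58 ± 0.185 in the lingual part (3.12 ± 0.44, adjusted p = 1.12e-06).

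Pericyte and smooth muscle genes moved toward lingual in 7 of 13 members and toward buccal in 2, the latter 1 when any 1 library was left out other than Cap_L replicate 1, Cap_L replicate 2, Cap_L_2D replicate 3 and Cap_B_2D replicate 1. In the main fit the shares were 53.85% and 15.38%, beside 19.5% and 16.0% of all genes. With the spread of the undivided libraries 3 were called toward lingual and 0 toward buccal, or 6 and 1 with that of the 4. The summed level of the list was 736 to 783 CPM in Cap_L and 838 to 850 CPM in Cap_B. After culture it was 1340 to 1422 CPM in Cap_L_2D and 2244 to 2455 CPM in Cap_B_2D. The sum was thus highest in the cultured buccal part, although most calls were toward lingual. Kcnj8, a potassium channel of pericytes, went from 1.49 ± 0.0929 to 15.3 ± 0.518 CPM in the lingual part, past the buccal level of 6.51 ± 0.505 before and 5.93 ± 0.509 after culture (interaction -3.49 ± 0.15, adjusted p = 8.40e-18). Acta2, or smooth muscle actin, rose steeply on both sides, from 10.8 ± 0.558 to 416 ± 12.8 and from 82.3 ± 0.470 to 1069 ± 55.1 CPM, and relatively more in the lingual part (interaction -1.56 ± 0.072, adjusted p = 3.72e-17). Mcam moved by -0.71 ± 0.06 (adjusted p = 4.56e-11).

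Red cell genes fell on both sides, as the summed level of 13 erythroid genes shows, with 2831 to 3510.4 CPM in Cap_L, 3331 to 3447 CPM in Cap_B, 34.9 to 40.8 CPM in Cap_L_2D and 35.2 to 40.9 CPM in Cap_B_2D. Beside this fall, the interaction was mixed, with 5 members toward lingual (38.46%, all genes 19.5%) and 2 toward buccal (15.38%, all genes 16.0%). The latter count was 1 without Cap_L_2D replicate 2. Slc4a1, the anion exchanger of red cells, had 16 to 27 reads in Cap_L_2D and 0 to 3 in Cap_B_2D, Hbb-bs and Hbb-y moved in opposite directions by -0.97 ± 0.13 and 0.85 ± 0.12 (adjusted p = 9.71e-07 and 1.50e-06), and Alas2, of heme synthesis, moved by -1.44 ± 0.31 (adjusted p = 3.88e-04).

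Bone genes moved mostly toward lingual, while cartilage genes were split. Of 18 osteoblast and mineralization genes, 14 rose in the lingual and 11 in the buccal part, 13 moved toward lingual and 2 toward buccal (median -0.46, or -0.63 with the floor, 2 called toward lingual with the spread of the undivided libraries, or 10 with that of the 4), and 13 already had a lingual lead at the cap stage. The count toward buccal was 1 when any 1 library was left out other than Cap_L replicate 2, Cap_L_2D replicate 2, Cap_B_2D replicate 1 and Cap_B_2D replicate 3. Ibsp, bone sialoprotein, was at 116, 118 and 113 CPM in Cap_L, 34.7, 34.7 and 35.9 in Cap_B, 1164, 1186 and 1132 in Cap_L_2D and 121, 116 and 116 in Cap_B_2D (interaction -1.58 ± 0.061, adjusted p = 5.63e-19). After culture the buccal level was about the lingual level before it. Ifitm5, a membrane protein of osteoblasts, moved by -1.69 ± 0.19 (adjusted p = 1.27e-08, with other genes over 29.7% of its exons) and Sparc, or osteonectin, by -0.96 ± 0.055 (adjusted p = 6.79e-15).

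Of 14 cartilage genes, 6 moved toward lingual (42.86%) and 5 toward buccal (35.71%), beside 19.5% and 16.0% of all genes (median 0.11). Acan, which encodes the proteoglycan aggrecan, was at 1.84, 2.33 and 2.97 CPM in Cap_L, 1.16, 1.74 and 1.61 in Cap_B, 7.38, 7.96 and 8.97 in Cap_L_2D and 31.4, 33.3 and 35.0 in Cap_B_2D (interaction 2.67 ± 0.20, adjusted p = 4.90e-12). The fibrillar collagens Col11a1 and Col11a2 and the link protein Hapln1 went toward lingual, by -1.30 ± 0.056, -1.49 ± 0.084 and -1.57 ± 0.13 (adjusted p = 9.66e-18, 5.42e-15 and 1.87e-11). Tendon genes moved toward lingual in 5 of 11 members (45.45%) and toward buccal in 1 (9.09%), or 2 without Cap_B replicate 1. With the spread of the undivided libraries 3 tendon genes were called toward lingual and 0 toward buccal, or 4 and 1 with that of the 4. Kera, or keratocan, was a gene of the buccal part throughout (2.10 ± 0.216 and 67.5 ± 3.74 CPM before, 5.20 ± 0.287 and 67.7 ± 4.03 CPM after culture, interaction -1.30 ± 0.13, adjusted p = 2.17e-09). Thbs4 and Fmod, matrix proteins of tendon, moved by -2.17 ± 0.077 (adjusted p = 1.03e-19) and -1.26 ± 0.077 (adjusted p = 3.30e-14).

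Most collagen genes rose in both parts (20 of 26 in the lingual and 24 in the buccal part), and 17 moved toward lingual and 6 toward buccal. The lean was lost with the spread of the undivided libraries, where 3 were called in each direction. It was 12 toward lingual and 4 toward buccal with that of the 4. Leaving out the 100 most abundant genes before the fit, which removes several collagens, left 9 toward lingual. Col14a1, a collagen that sits on fibrils, was at 7.04, 7.15 and 6.92 CPM in Cap_L, 108, 108 and 108 in Cap_B, 116, 113 and 117 in Cap_L_2D and 337, 327 and 329.8 in Cap_B_2D, so that a buccal lead of 3.93 ± 0.053 narrowed to 1.52 ± 0.038 (interaction -2.41 ± 0.067, adjusted p = 2.34e-22). Col23a1 and Col6a1 moved toward lingual by -1.84 ± 0.061 (adjusted p = 1.30e-20) and -1.10 ± 0.061 (adjusted p = 3.38e-15), and Col15a1, of basement membranes, toward buccal by 1.56 ± 0.059 (adjusted p = 3.62e-19). Among 16 metalloproteinases and their inhibitors, 9 (56.25%) moved toward lingual, such as Mmp11 (-1.04 ± 0.067, adjusted p = 1.06e-13), Mmp16 (-0.76 ± 0.081, adjusted p = 5.64e-09) and Mmp2 (-0.46 ± 0.056, adjusted p = 8.14e-08), and 3 (18.75%) toward buccal, such as Mmp9 (0.38 ± 0.062, adjusted p = 1.12e-05), or 1 without Cap_B replicate 3. The shares of all genes were 19.5% and 16.0%. With the spread of the undivided libraries 1 member of this list was called toward lingual and 0 toward buccal, or 4 and 2 with that of the 4.

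Most cell cycle genes fell with culture in both parts, and many moved toward buccal. Of 25 mitosis genes, 25 fell in the lingual and 24 in the buccal part, and 24 moved toward buccal with 0 toward lingual (median 0.35). Of 25 S phase genes, 25 fell in the lingual and 15 in the buccal part, where 3 rose, and 16 moved toward buccal with 0 toward lingual (median 0.27). No member of either list moved by more than 2-fold, and 0 were called with the spread of the undivided libraries, or 10 mitosis and 6 S phase genes with that of the 4. Ccna2, or cyclin A2, was at 98.6, 98.2 and 97.3 CPM in Cap_L, 99.1, 102 and 102 in Cap_B, 53.7, 55.3 and 50.2 in Cap_L_2D and 80.7, 79.6 and 78.8 in Cap_B_2D (interaction 0.54 ± 0.061, adjusted p = 1.71e-08). The sides lay within a few percent of each other before culture and well apart after it.

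The kinase gene Aurka, the survivin gene Birc5 and the checkpoint gene Bub1b moved toward buccal by 0.65 ± 0.079, 0.56 ± 0.07 and 0.47 ± 0.065 (adjusted p = 8.96e-08, 1.47e-07 and 8.02e-07). Among S phase genes, Ccne1, or cyclin E1, fell by 0.34 ± 0.054 in the lingual and rose by 0.49 ± 0.053 in the buccal part (interaction 0.83 ± 0.076, adjusted p = 3.09e-10), and Uhrf1, Chaf1b and Rrm2, of chromatin and nucleotide supply, moved by 0.64 ± 0.062, 0.47 ± 0.075 and 0.43 ± 0.069 (adjusted p = 1.00e-09, 9.03e-06 and 1.20e-05). Cdkn1a, the inhibitor p21, moved toward buccal too, from 11.6 ± 0.329 to 184 ± 5.54 CPM in the buccal and from 14.5 ± 1.62 to 112 ± 0.973 in the lingual part (interaction 1.05 ± 0.086, adjusted p = 2.84e-11). Of 20 p53 targets and apoptosis genes, 5 moved toward buccal and 3 toward lingual, shares of 25% and 15% beside 16.0% and 19.5% of all genes, among the latter Btg2 (-0.61 ± 0.054, adjusted p = 1.53e-10) and the death receptor Fas (-1.52 ± 0.17, adjusted p = 2.49e-08).

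Genes of amino acid supply, which the factor Atf4 switches on, moved toward buccal more often than toward lingual. Of 27 amino acid and unfolded protein stress genes, 27 rose in the buccal and 24 in the lingual part, and 13 moved toward buccal with 3 toward lingual (median 0.27, 4 called toward buccal with the spread of the undivided libraries, or 9 with that of the 4), and without Cap_B replicate 2 the count toward lingual was 1. Slc7a5, an amino acid transporter, was at 61.3, 62.4 and 65 CPM in Cap_L, 44.9, 42.3 and 43.3 in Cap_B, 99.6, 103 and 101 in Cap_L_2D and 189.6, 200.3 and 206 in Cap_B_2D, turning from a lingual to a buccal lead (interaction 1.5 ± 0.063, adjusted p = 4.69e-18). Asns, or asparagine synthetase, and the mitochondrial one-carbon enzymes Mthfd2 and Shmt2 moved by 1.17 ± 0.077, 0.95 ± 0.068 and 0.87 ± 0.067 (adjusted p = 1.86e-13, 1.36e-12 and 8.27e-12).

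Glycolysis and cholesterol synthesis genes moved about equally often in either direction. Of 29 glycolysis and hypoxia genes, 6 moved toward buccal and 7 toward lingual, shares of 20.7% and 24.1% beside 16.0% and 19.5% of all genes, with Eno1 at 0.87 ± 0.078 (adjusted p = 2.16e-10), Egln3 at 0.88 ± 0.11 (adjusted p = 1.95e-07) and Hk1 at 0.50 ± 0.074 (adjusted p = 2.52e-06) on the one side and Pfkfb3 at -0.57 ± 0.066 (adjusted p = 3.89e-08) on the other. Of 22 cholesterol synthesis genes, 5 moved toward buccal and 4 toward lingual, shares near those of all genes. The former fell to 3 without Cap_B replicate 1, Cap_B replicate 2 or Cap_B_2D replicate 2, and the latter to 2 without Cap_L replicate 1. Fdps and Lss moved by 0.66 ± 0.12 (adjusted p = 6.53e-05) and 0.32 ± 0.064 (adjusted p = 1.44e-04), and Cyp51 and Ebp by -0.38 ± 0.059 (adjusted p = 5.38e-06) and -0.43 ± 0.09 (adjusted p = 3.39e-04).

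Most transcription factors of the dental mesenchyme fell in culture in the buccal part. Of 35 tested, 27 fell in the buccal and 15 in the lingual part, and 21 moved toward lingual with 9 toward buccal (median -0.35, 3 called toward lingual with the spread of the undivided libraries, or 17 with that of the 4). Osr2, which sets the lingual limit of the tooth field, was at 217, 235 and 214 CPM in Cap_L, 442, 428 and 430.3 in Cap_B, 274, 266 and 265 in Cap_L_2D and 281, 286 and 302 in Cap_B_2D, so that a buccal lead of 0.96 ± 0.042 shrank to 0.11 ± 0.042 (interaction -0.86 ± 0.059, adjusted p = 6.77e-13). Osr1 kept part of its buccal lead (1.45 ± 0.043 before and 0.73 ± 0.042 after culture, interaction -0.72 ± 0.059, adjusted p = 3.47e-11). Twist1, of cranial mesenchyme, rose by 0.32 ± 0.045 in the lingual and fell by 0.45 ± 0.045 in the buccal part (interaction -0.77 ± 0.063, adjusted p = 2.95e-11). Hox genes, which the mandibular arch lacks, were nearly absent, with 4 of 22 listed genes passing the filter, all 4 higher in the buccal part before and after culture, and Hoxd8 moved toward lingual (interaction -1.42 ± 0.41, adjusted p = 0.00688) from 0.155 ± 0.0449 to 2.90 ± 0.557 CPM in the lingual and 1.35 ± 0.328 to 8.95 ± 1.11 in the buccal part. Of these 4 Hox genes, 3 were at or under 3 reads per library in Cap_L. Their median interaction of -1.175 became 0.20 with the floor. Hoxd8 was not called with the spread of the undivided libraries, and was with that of the 4.

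Guidance molecules moved both ways. Of 31 semaphorins, plexins and neuropilins, 15 moved toward lingual (48.39%) and 7 toward buccal (22.58%), beside 19.5% and 16.0% of all genes. These counts were 3 and 2 with the spread of the undivided libraries, and 12 and 5 with that of the 4. Sema3g rose from 6.51 ± 0.158 to 20.8 ± 0.979 CPM in the lingual part and fell from 11.3 ± 0.507 to 8.85 ± 1.14 in the buccal part (interaction -2.03 ± 0.12, adjusted p = 1.57e-14). Sema6b rose from 12.1 ± 0.921 to 38.6 ± 1.98 CPM in the buccal part (interaction 1.61 ± 0.11, adjusted p = 6.98e-13). Sema5a went toward lingual (-1.0 ± 0.072, adjusted p = 1.47e-12) and Sema6a toward buccal (0.83 ± 0.06, adjusted p = 1.92e-12).

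Other genes overlap 12.4% to 26.7% of the exons of Rspo3, Lef1, Tgfb3, Ccna2, Alas2, Irf1, Mmp2 and Fdps, and as no strand setting is stated for the counting their reads cannot be told from those of the overlapping gene.

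The study names 22 genes for the comparison of the cultured parts, and as it chose them on these samples their direction is not independent evidence. Of these, 13 moved toward lingual and 4 toward buccal, and 5 were not called. Those not yet described are Apoe, a lipid carrier that rose from 40.3 ± 6.35 to 428 ± 11.4 CPM in the lingual and from 53.8 ± 2.81 to 234 ± 13.6 in the buccal part (interaction -1.28 ± 0.092, adjusted p = 1.39e-12), and Eda, or ectodysplasin, a signal for teeth and hair. Eda was higher in the lingual part at both times (-1.19 ± 0.071 and -0.92 ± 0.065), and its interaction of 0.27 ± 0.097 (adjusted p = 0.0311) was not called without Cap_L replicate 3, Cap_B replicate 2, Cap_L_2D replicate 1, Cap_L_2D replicate 2 or Cap_B_2D replicate 2 (0.19 to 0.26, adjusted p = 0.0559 to 0.154).

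**Figure D5:**
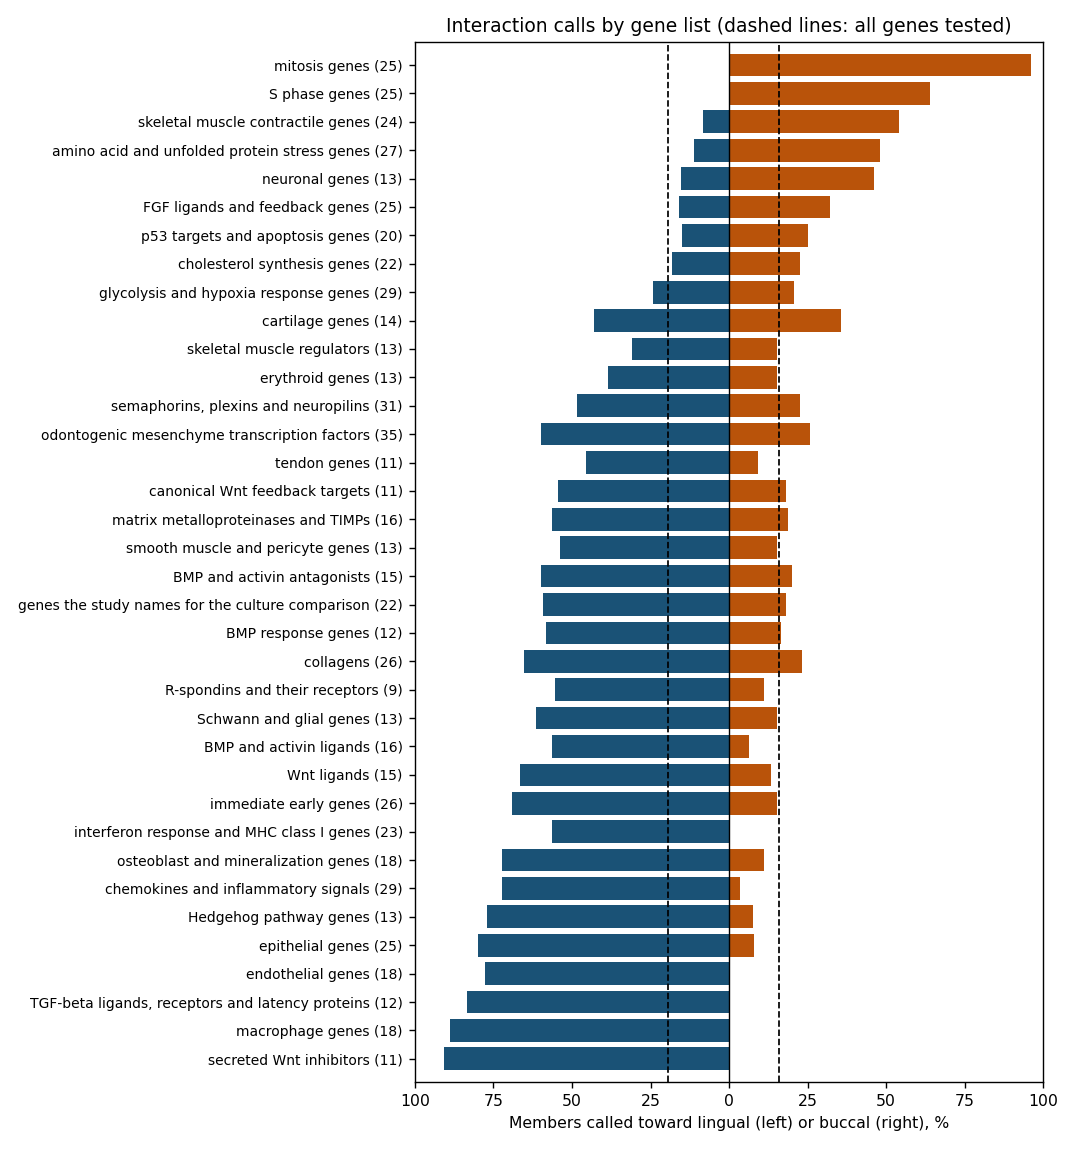
Share of the tested members of each gene list (number tested in brackets, lists with under 9 left out) whose interaction was called toward lingual (bars to the left) or toward buccal (bars to the right), with dashed lines at the shares of all genes tested, 19.5% and 16.0%. Secreted Wnt inhibitors, macrophage genes, TGF-beta genes, endothelial genes and epithelial genes have the longest bars to the left, and mitosis, S phase and contractile genes the longest to the right.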

How the data were processed

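RNA-seq counts of lingual and buccal parts of cap-stage molar germs, before and after culture, were used (4 groups of 3 libraries). The authors deposited raw read counts per gene, made per the file headers with featureCounts 2.0.0 on exons of read pairs and the Ensembl annotation of GRCm39, with no strand option. The submitters' processing notes list FastQC 0.12.1, Trimmomatic 0.39, Bowtie 1.2.3, Subread 2.0.3 and DESeq2 1.40.2, whereas the study's methods name STAR and Cutadapt in one section and Subread 2.0.0, the version in the file headers, in another. They also name a library kit other than the one in the labels, so the aligner and kit behind the counts are uncertain.

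Genes were kept by filterByExpr and fitted in 1 edgeR 4.0.16 quasi-likelihood model (R 4.3.3) with TMM scaling and group means. The interaction, the culture effect in each part and the side difference at each stage were tested as contrasts, with Benjamini-Hochberg adjustment over all 22098 genes and a threshold of 0.05. A single gene could not reach 0.05 by an exact two-sided permutation test of 3 libraries against 3, whose smallest p is 0.1. CPM and intervals cover these libraries only, whose depth is given with the results. Same-numbered libraries did not all deviate together, over all genes or over the abundant ones, so the main fit has no block.

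Named genes were the 12 in each direction with the largest interaction among called genes with an average log2 CPM of at least 2, a proper symbol and a call in each of 12 fits leaving out 1 library, up to 4 called members of each of 37 gene lists by smallest p, and the genes the study names, and some of these are not reported here. The question, lists and rules were chosen with earlier results of these data known. Medians "with the floor" set groups at or under 3 reads per library to 3 reads. Tested on simulated data for the interaction with 200 changed genes among 21751, the fit recovered 188, including 132 of 134 changed 2-fold or more, with 3 false calls. The simulated counts were drawn from the fitted model with the spread of these same libraries, and the changed genes had an average log2 CPM over 2. The simulation therefore cannot show whether that spread is too small, nor how genes of low counts fare. Alternatives were other scalings, DESeq2 1.42.0, other filters, all 24 libraries, a replicate block, fold limits, left-out genes, each library left out, and the dispersion of the undivided libraries, all 6 or 4 of them. Promoters came from the RefSeq table of build GRCm38.p6, which was used for sequence only.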

Additional observations from a re-analysis of the deposited data

Results flagged for a closer look

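The effect of culture differed between the lingual and the buccal part by a test of the difference itself in 3526 genes that moved toward buccal and 4316 that moved toward lingual (edgeR's quasi-likelihood test, adjusted p under 0.05). Of the 24 genes with the largest differences among those whose average log2 CPM reached 2 and which were called with each library left out, 23 are given here by their fitted interaction.

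Toward buccal these were Stum (3.12), Casz1 (3.05), Kremen2 (2.97), Insrr (2.95), Styxl2 (2.85), Gpr37 (2.83), Pdlim3 (2.75), Frmpd1 (2.73), Shisa2 (2.68), Acan (2.67) and Dpysl5 (2.65). All 11 were called as risen in the buccal part, beside 32.4% of all genes, and the cultured buccal libraries lay above the cultured lingual ones in each. As these genes were chosen by a large interaction toward buccal, both traits follow largely from the choice and are no further evidence.

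Toward lingual these were Krt13 (-12.11), Krt4 (-11.80), Dsg1a (-7.10), Dsg3 (-6.72), Krt6a (-6.56), Krt15 (-5.96), Krt19 (-5.66), Cyp2w1 (-4.68), Krt5 (-4.22), Slc4a1 (-4.08), Cntnap4 (-4.0) and Scg2 (-3.97). Krt13, Krt4, Dsg1a and Slc4a1 had 0 to 3 reads in the cultured buccal libraries, so that their fitted values depend on the prior count of the fit and are no measure of the fold. With 3 reads set for each of these libraries, their interactions were -10.22, -10.36, -6.80 and -3.02. Scg2, a precursor of neuropeptides, turned from a buccal lead of 2.08 ± 0.11 to a lingual lead (-1.89 ± 0.11).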

How the results depend on the processing

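More genes moved toward lingual than toward buccal under every alternative except upper quartile scaling (4003 toward buccal and 3949 toward lingual), and what moved most was how many genes were called. With all 24 libraries in 1 fit the interaction was called for 1973 genes toward buccal and 2075 toward lingual, and the cap-stage side difference for 2707 genes higher in buccal and 2761 in lingual. With the dispersion of the undivided libraries, added after seeing the data, the interaction counts were 176 and 371, with 1934 genes at an unadjusted p under 0.05. Under the same setting culture raised 3017 and lowered 1770 genes in the lingual part and raised 2567 and lowered 1919 in the buccal part, and the side differences were 1026 buccal and 647 lingual before and 1332 and 1470 after culture. The undivided libraries varied more than the parts (coefficient of variation 0.249 against 0.0405), largely through Cap_W replicate 1, with 5.39% of its counts in Rn18s-rs5, and Bell_W replicate 3. Without these 2 it was 0.0997, and with that dispersion, also added after seeing the data, the interaction counts were 1274 and 1970 and the side differences 2792 buccal and 2060 lingual before and 3476 and 3569 after culture.

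With a log2 fold limit of 0.5 the interaction counts were 1576 and 2246, culture raised 4545 and lowered 3319 genes in the lingual part and raised 4075 and lowered 3462 in the buccal part, and the side differences were 2329 and 1550 before and 2717 and 2747 after culture. With a limit of 1 these were 682 and 1071, 2444 and 1311, 2227 and 1592, 1283 and 711, and 1427 and 1336. Leaving out 1 library gave 3088 to 3642 genes toward buccal and 3873 to 4636 toward lingual. Other scalings, filters, DESeq2 and left-out gene sets gave 6965 to 7952 interaction calls. The replicate numbers were not taken to pair the libraries. Over all genes the 18 correlations of same-numbered libraries lay between -0.0252 and 0.055. Over the 6932 genes with a mean log2 CPM of 5 or more they lay between -0.327 and 0.559, with 6 of 18 over 0.1 (all 3 for Cap_B with Cap_L_2D, 0.132 to 0.405), beside 13 of 36 of differently numbered libraries (-0.542 to 0.553). With a replicate block 7866 genes were called, 3535 toward buccal and 4331 toward lingual, 7720 of them shared.

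Of the named genes, 15 lost their call with 24 libraries (Wnt4, Tcf7, Id2, Mmp16, Mmp9, Egln3, Pax3, Fabp7, Tubb3, Dcx, Stmn2, Eda, Fst, Nog and Shh), 73 with the undivided dispersion and 10 with that of the 4 (Apcdd1, Fdps, Lss, Ebp, Pax3, Myod1, Eda, Tgfb3, Fst and Nog). Among the 73 were Des, Tnnt3, Kera, Ptprc, Fas, Cd14, C1qb, Rspo4, Lgr4, Lgr5, Osr1, Osr2 and Twist1, none of which is among the 10. Rspo1 and Bmp4, which were not called, changed sign. Rspo1 was at 0.0019 with RLE scaling, 0.027 with upper quartile scaling, 0.0016 with DESeq2, 0.0082 without a filter, 0.032 with 24 libraries, 0.00094 without muscle and erythroid genes and -0.047 to 0.043 with 1 library left out, and Bmp4 at 0.0014 with upper quartile scaling and 0.0077 with 24 libraries. The cause of these shifts was not tested. At these depths, genes under about 0.1 CPM rest on 3 or fewer reads.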
